A study of Mus musculus with 20 samples.

Results

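Glucose breakdown in the intervertebral disc was read through 36 genes chosen by symbol: 2 glucose transporters, 20 genes of the glycolytic steps and their control, 2 lactate dehydrogenases, 10 genes of pyruvate entry into the mitochondrion and 2 lactate transporters. All 36 were found by symbol among the 51789 genes of the deposited table. All 36 also passed the filter on low values, along with 16383 genes in total, and each stood at 1 FPKM or more (fragments scaled to transcript length and library size) in at least 5 of the 20 libraries.

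Glycolysis splits glucose into pyruvate and yields ATP without oxygen. Lactate dehydrogenase turns pyruvate into lactate, which monocarboxylate transporters carry across the plasma membrane, whereas the pyruvate dehydrogenase complex commits pyruvate to the tricarboxylic acid cycle and is switched off by its kinases. The nucleus pulposus (NP), the gel-like core of the disc, has no vessels of its own and is known for a glycolytic metabolism and for constant activity of the hypoxia-inducible factor HIF-1, which drives many glycolytic genes. The annulus fibrosus (AF) is the fibrous ring around it.

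RNA was measured in NP and AF of BL6 mice killed at 24 months of age. From 18 months, for 6 months, mice had received intraperitoneal injections of DMSO alone (vehicle) or of MDL-800 in the same amount of DMSO, so every group carries DMSO. MDL-800 is a small molecule described as an activator of the deacylase SIRT6, which the series title names. Each of the 4 combinations of tissue and treatment holds 5 libraries, named here by the number in their title or library name. The labels speak both of primary cells and of tissue dissected under a microscope, and the dose, the sex and whether each library comes from 1 mouse are not given in the sources used here. The p-values below therefore measure the spread between these libraries. In bulk RNA, fewer cells of a type and less RNA per cell cannot be told apart.

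Depth was estimated from the steps of low values at 12.8 to 22.2 M reads per library. The labelled tissues were checked against marker genes. In the vehicle groups 11 of 13 tested NP markers were higher in NP, the water channel gene Aqp1 was lower, and 12 of 13 AF markers were lower in NP. AF also carried other cell types: the summed level of 18 skeletal muscle markers was 1617 to 14511 in AF vehicle and 1381 to 14986 in AF MDL-800. NP libraries ranged over 17.7 to 2233 with vehicle and 18.3 to 378 with MDL-800. No marker of any list was at 0 in all 5 libraries of a group. Levels follow the order of the library numbers, which are 1, 2, 3, 5 and 6 (NP vehicle), 8, 9, 10, 12 and 13 (AF vehicle), 15, 18, 19, 20 and 22 (NP MDL-800) and 25, 27, 28, 29 and 30 (AF MDL-800). All levels are FPKM rescaled between libraries, and all fold changes are differences of log2(scaled FPKM + 1), which understate changes of low genes. Since FPKM is per length, levels of different genes, such as the shares of relatives in a family, are set side by side on that scale. Values after ± are SDs over 5 libraries.

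The first question was how the pathway differs between core and ring. In vehicle-treated mice, 25 of the 36 genes passed the test (limma, Benjamini-Hochberg adjusted p under 0.05 over all genes tested), 16 higher and 9 lower in NP. The background was large: 55.7% of all genes tested passed, 21.8% as higher and 33.9% as lower. The median difference was 0.28 over the 36 genes and -0.08 over all genes. The genes higher in NP were the transporter Slc2a1, Hk2, Pfkl, Pfkp, Pfkfb3, Aldoc, Tpi1, Pgk1, Pgam1, Eno1, Eno2, Pkm, Ldha and Ldhb, with Pdk1 and Pdha1. Gpi1, Gapdh and the main aldolase gene Aldoa did not pass. The genes lower in NP were Pfkm, Pfkfb1, Pfkfb4, Bpgm, the pyruvate dehydrogenase genes Pdhb, Dlat and Dld, the pyruvate carrier gene Mpc2 and the lactate transporter Slc16a1. The 5 NP and 5 AF libraries did not overlap for 13 of the higher and 7 of the lower genes (41.0% of all genes did not overlap).

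The split depends on the scaling. With upper quartile scaling 24 of the 36 were called, 19 higher and 5 lower, and with quantile normalization 25, 19 higher and 6 lower. Over all genes, 30.4% were then called higher and 28.4% lower with upper quartile scaling, and 39.5% higher and 24.0% lower with quantile normalization. These scalings moved the median of all genes from -0.08 to 0.08 and 0.20. The 16 higher genes stayed called under both, while Pdhb, Dlat, Dld and Mpc2 were no longer called under upper quartile scaling and Pfkfb1, Dlat and Dld under quantile normalization.

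**Figure D1:**
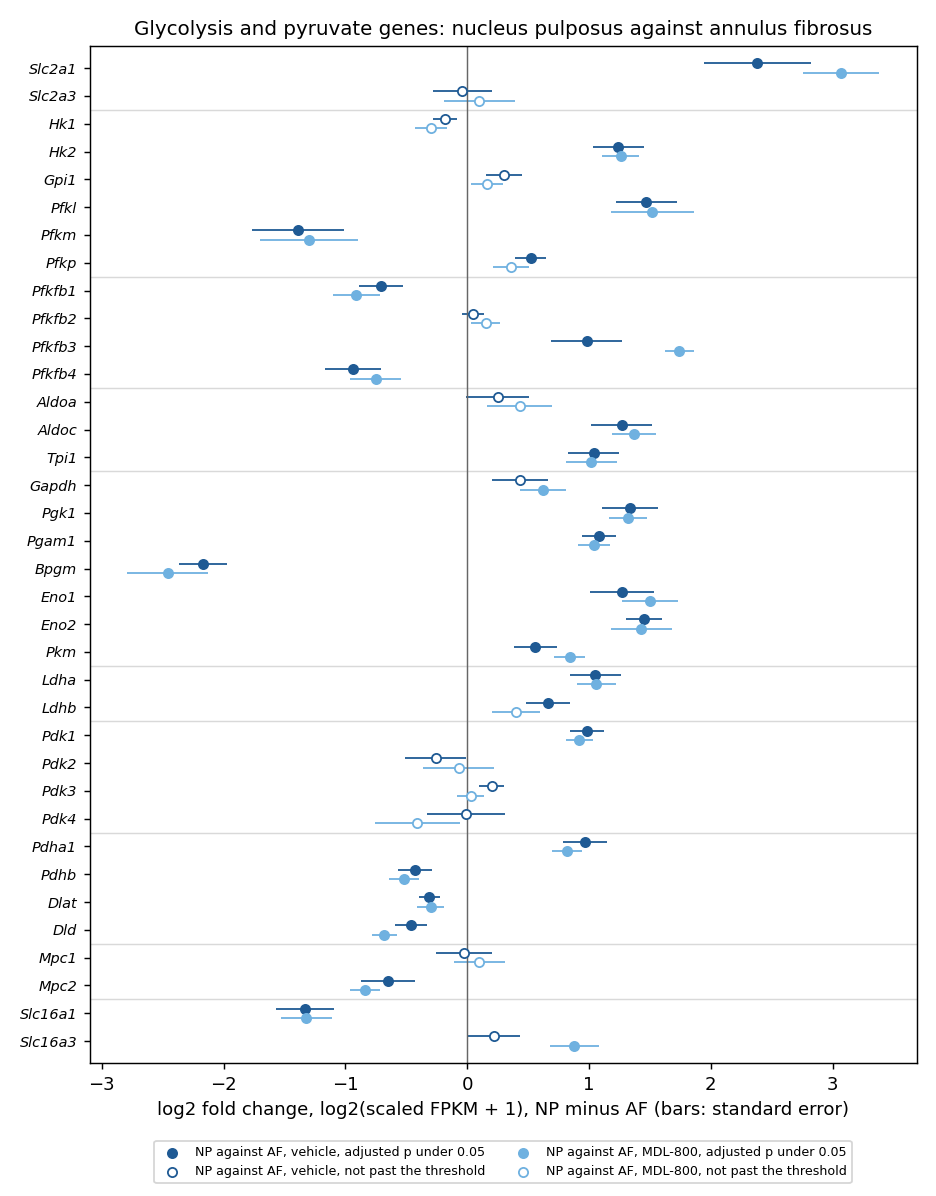
Log2 fold change, NP minus AF, of the 36 genes in vehicle (dark) and MDL-800 (light) libraries, with bars for the standard error and filled points for adjusted p under 0.05. Slc2a1 lies farthest to the right (2.38 in vehicle) and Bpgm farthest to the left (-2.17), and both treatments give 25 filled points. With upper quartile scaling, quantile normalization or the FPKM as deposited, the points of Slc2a3, Hk1, Pfkfb2, Pdk2, Pdk3, Pdk4 and Mpc1, none of them filled, change side in at least one of the comparisons.

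Promoter sequences were read for 35 of the 36 genes, all but Slc2a3, from RefSeq on GRCm38.p6, as windows from 250 bases before to 50 after each annotated start. The letters searched were ACGTG on either strand (CACGT on the strand printed), the core of the sequence that HIF binds. It was found in 22 of the 55 windows of these genes (40.0%) and in 19.6% of all 32851 windows. Windows of the genes higher in NP held it in 9 of 23 cases (39.1%), those of lower genes in 4 of 15 (26.7%) and those of genes not called in 9 of 17 (52.9%). With GCGTG, the other form of that core, also allowed, 70.9% of these windows and 43.8% of all windows held a match. A match describes the letters only. The following 4 stretches, each the 250 bases before the start on the plus strand, are shown because their genes carry the results below: uptake (Slc2a1), payoff (Pgk1), lactate formation (Ldha) and lactate export (Slc16a3). Capitals mark ACGTG or CACGT.
Slc2a1, chr4:119108495-119108744: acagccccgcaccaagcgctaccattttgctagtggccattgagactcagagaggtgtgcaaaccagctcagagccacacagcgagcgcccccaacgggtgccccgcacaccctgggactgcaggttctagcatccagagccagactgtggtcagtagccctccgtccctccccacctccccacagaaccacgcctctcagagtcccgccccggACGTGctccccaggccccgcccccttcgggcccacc
Pgk1, chrX:106186850-106187099: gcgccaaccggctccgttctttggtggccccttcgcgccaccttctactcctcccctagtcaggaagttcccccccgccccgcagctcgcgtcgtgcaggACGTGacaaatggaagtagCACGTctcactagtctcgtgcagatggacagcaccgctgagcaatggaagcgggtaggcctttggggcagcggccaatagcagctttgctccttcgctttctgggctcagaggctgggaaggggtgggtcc
Ldha, chr7:46845554-46845803: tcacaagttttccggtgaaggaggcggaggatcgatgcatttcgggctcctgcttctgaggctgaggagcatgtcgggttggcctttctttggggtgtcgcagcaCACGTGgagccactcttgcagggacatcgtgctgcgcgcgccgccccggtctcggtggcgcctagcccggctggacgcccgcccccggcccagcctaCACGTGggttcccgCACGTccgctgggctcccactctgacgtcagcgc
Slc16a3, chr11:120948817-120949066: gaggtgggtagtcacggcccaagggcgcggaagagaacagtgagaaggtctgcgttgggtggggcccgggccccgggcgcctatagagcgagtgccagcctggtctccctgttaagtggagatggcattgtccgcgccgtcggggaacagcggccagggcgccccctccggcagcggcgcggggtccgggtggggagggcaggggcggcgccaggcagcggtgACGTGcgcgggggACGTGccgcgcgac
Slc2a1 holds 1 match, Pgk1 2 and Slc16a3 2. All 4 genes shown have a match, but only 8 of the 16 genes higher in NP have one in any window. Slc16a3 is not among those 16. The Ldha stretch holds 5 matches in 3 places, because CACGTG reads as a match on both strands. It was shown because it is the Ldha window with the most matches, and the window at the other annotated start of Ldha holds none. The window of Slc16a1, which was lower in NP, holds 3 matches.

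Glucose uptake differed through 1 of the 2 transporters. Slc2a1 encodes GLUT1, the basal glucose transporter. Its level was 439, 532, 829.6, 755 and 654 in the NP vehicle libraries and 86.5, 329, 198, 79.3 and 53.0 in the AF vehicle libraries. The groups did not overlap, and AF vehicle 9 was the highest AF library. The difference (log2 fold change 2.38, SE 0.44, adjusted p = 0.000945) was 2.75 without AF vehicle 9, whose summed NP markers (16532) were also the highest in AF. Slc2a3, the gene of the high-affinity transporter GLUT3, was at 30.8 ± 6.24 in NP and 32.8 ± 11.4 in AF, with overlapping libraries and a log2 difference of -0.04 that became 0.14 under upper quartile scaling. Slc2a1 made up 95.2% ± 1.65 of the summed FPKM of both genes in NP and 76.2% ± 15.2 in AF.

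At the entry step, hexokinases trap glucose as glucose 6-phosphate. Hk2, the inducible hexokinase, was at 26.6, 51.5, 54.8, 46.7 and 43.2 in NP vehicle and 13.4, 21.3, 18.8, 22.6 and 14.7 in AF vehicle. All NP libraries were above all AF libraries, with NP vehicle 1 the lowest of NP (log2 fold change 1.24, SE 0.21, adjusted p = 0.000489). Hk1, the constitutive enzyme, was at 39.9 ± 2.33 in NP and 45.6 ± 5.40 in AF and did not pass (adjusted p = 0.144), although without AF vehicle 12 its difference, then -0.25, did. Hk2 made up 52.0% ± 7.94 of the hexokinase pair in NP and 28.5% ± 6.55 in AF, and the ranges did not overlap. Gpi1, which turns glucose 6-phosphate into fructose 6-phosphate, was at 489.8 ± 78.8 and 396 ± 56.1 (adjusted p = 0.117), although its difference passed under upper quartile scaling, at 0.49.

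Phosphofructokinase 1, the committed step, differed in isoform makeup. The liver-type gene Pfkl was at 99.1, 80.7, 91.6, 80.4 and 96.3 in NP vehicle and 38.0, 62.7, 23.7, 21.3 and 26.1 in AF vehicle. No AF library reached the NP range (log2 fold change 1.47, SE 0.25, adjusted p = 0.000593). The muscle-type gene Pfkm ran the other way, at 20.1, 20.9, 48.5, 20.3 and 22.9 in NP and 34.1, 83.3, 61.7, 154 and 49.5 in AF. Its groups overlapped only through NP vehicle 3, the NP library with the highest skeletal muscle sum (2233), and through AF vehicle 8, the AF vehicle library with the lowest (1617). The difference (log2 fold change -1.39, SE 0.38, adjusted p = 0.00897) was -0.89, and still called, without the 2 AF vehicle libraries of highest muscle sum. The platelet-type gene Pfkp was at 80.7 ± 13.3 in NP and 55.8 ± 7.91 in AF (log2 fold change 0.52, SE 0.13, adjusted p = 0.00627). By share, Pfkl held 45.6% ± 2.61 of the 3 genes in NP and 21.6% ± 9.82 in AF, and Pfkm 13.4% ± 5.54 and 43.1% ± 13.6.

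The 4 Pfkfb genes encode enzymes that make and remove fructose 2,6-bisphosphate, the activator of phosphofructokinase 1. Pfkfb3, whose enzyme strongly favours synthesis, was at 29.3, 76.2, 84.4, 76.3 and 65.1 in NP vehicle and 23.4, 39.6, 39.0, 35.5 and 22.2 in AF vehicle. Only NP vehicle 1 fell into the AF range. The difference (log2 fold change 0.98, SE 0.29, adjusted p = 0.0131) was 1.25 without that library. Pfkfb4 was lower in NP, at 7.65 ± 1.44 against 16.2 ± 5.78, with no overlap (log2 fold change -0.94, SE 0.23, adjusted p = 0.00467). Pfkfb1 was low throughout, at 1.57 ± 0.296 in NP and 3.31 ± 1.29 in AF (log2 fold change -0.71, SE 0.18, adjusted p = 0.00711), and was not called under quantile normalization. Pfkfb2, the heart-type gene, was at 7.10 ± 0.265 and 6.82 ± 0.57, a difference of 0.05 that turned to -0.0048 on the FPKM as deposited. In 1 of 22 alternative settings it passed as higher in NP (adjusted p = 0.00315). With overlapping ranges, Pfkfb3 supplied 78.6% ± 7.94 of the family in NP and 54.4% ± 11.6 in AF.

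**Figure D2:**
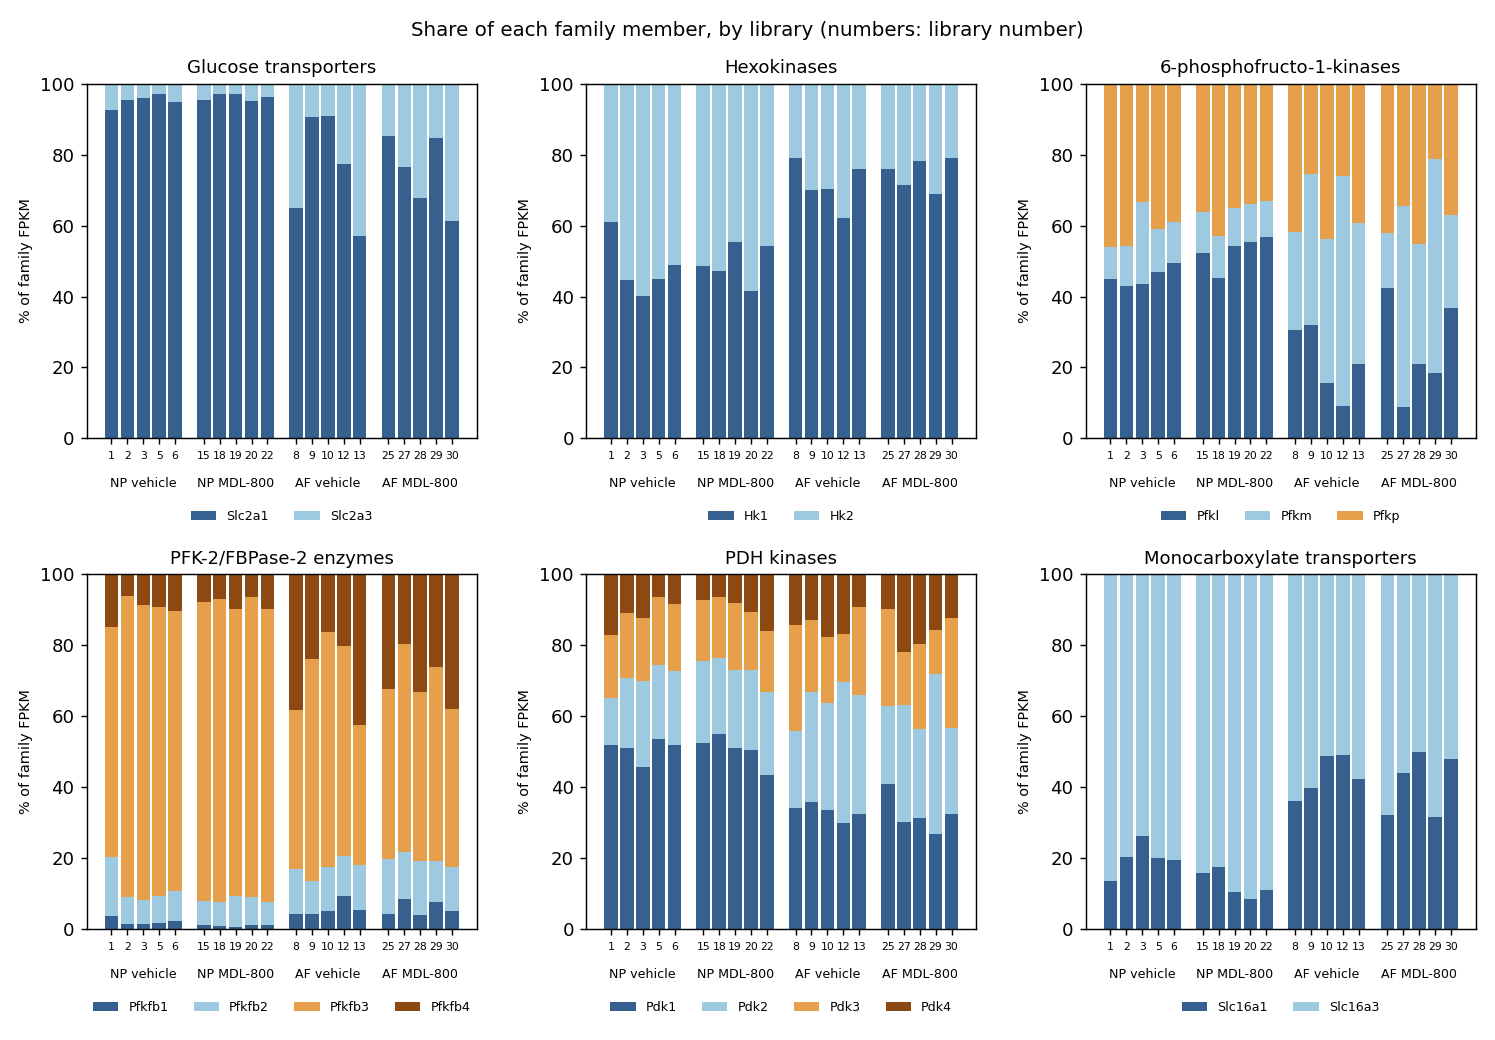
Share of each gene in the summed FPKM of its family (percent, vertical axis) in each of the 20 libraries (horizontal axis, by group and library number). The Hk2, Pfkl, Pdk1 and Slc16a3 segments are taller in the NP than in the AF vehicle libraries, for example 52.0% against 28.5% on average for Hk2, and the Pfkm segment ranges from 15.5% to 65.0% among AF libraries.

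Aldolase and triose phosphate isomerase split fructose 1,6-bisphosphate and interconvert its products. Aldoa, one of the most abundant of the 36 genes, was at 1566, 1377, 1886, 1538 and 1550.3 in NP vehicle and 921, 1900.5, 1166, 2107 and 933 in AF vehicle. It did not pass (adjusted p = 0.434), and AF vehicle 12 and 9, the muscle-rich libraries, were its highest AF libraries. Without those libraries the difference was 0.65 and passed, but AF vehicle 9 also had the highest NP marker sum in AF (16532). Aldoc, the brain-type aldolase, was higher in NP at 41.9 ± 6.05 against 17.8 ± 7.78 (log2 fold change 1.27, SE 0.25, adjusted p = 0.00133), though it made up only 2.61% ± 0.468 of the pair. Tpi1 was at 786 ± 58.7 in NP and 399 ± 138 in AF, without overlap (log2 fold change 1.04, SE 0.21, adjusted p = 0.00183).

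Of 7 genes grouped here with the payoff phase, 5 were higher in NP, beside 21.8% of all genes. Bpgm, which is not itself a step of that phase, was the 1 lower gene. Pgk1, which makes the first ATP, was at 937, 900.1, 723, 741 and 631 in NP vehicle and 270.3, 477, 298, 360.3 and 193 in AF vehicle. The lowest NP library lay above the highest AF library (log2 fold change 1.34, SE 0.23, adjusted p = 0.000512). Pgam1, the phosphoglycerate mutase, was at 434, 395, 444, 427 and 369 in NP and 216, 249, 195, 171 and 154 in AF, also apart (log2 fold change 1.08, SE 0.14, adjusted p = 8.88e-05). Both enolase genes were higher: Eno1 was at 1340.3 ± 205 against 585 ± 236 (log2 fold change 1.27, SE 0.26, adjusted p = 0.00176), and Eno2, the neuron-type enolase, at 26.9 ± 2.81 against 9.38 ± 2.37 (log2 fold change 1.45, SE 0.15, adjusted p = 3.04e-05). Eno1 supplied 98.0% ± 0.216 of the pair in NP and 98.3% ± 0.481 in AF. Pkm, pyruvate kinase, differed less, at 985 ± 156 and 673 ± 129, with overlapping libraries (log2 fold change 0.56, SE 0.18, adjusted p = 0.0195). Its call was lost in 1 of 22 alternative settings (adjusted p = 0.0532), the replicate block given at the end.

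Gapdh and Bpgm stood apart from that group. Gapdh was the most abundant of the 36 genes in both tissues, at 2598, 2966, 2278, 3386 and 2807 in NP vehicle and 1604, 2475, 2096, 2814 and 1609.9 in AF vehicle. The ranges overlapped and the difference of 0.43 did not pass (adjusted p = 0.13). Under upper quartile scaling it was 0.62 and passed. Its value is uncertain, because the table holds 77 near-identical copies that together reach 18.2% of its mean FPKM. Bpgm makes 2,3-bisphosphoglycerate, abundant in red blood cells. It was at 19.2, 18.1, 20.0, 13.1 and 23 in NP vehicle and 81.5, 143, 75.3, 69.9 and 79.4 in AF vehicle. Every AF library was at more than the highest NP level (log2 fold change -2.17, SE 0.20, adjusted p = 1.48e-05).

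**Figure D3:**
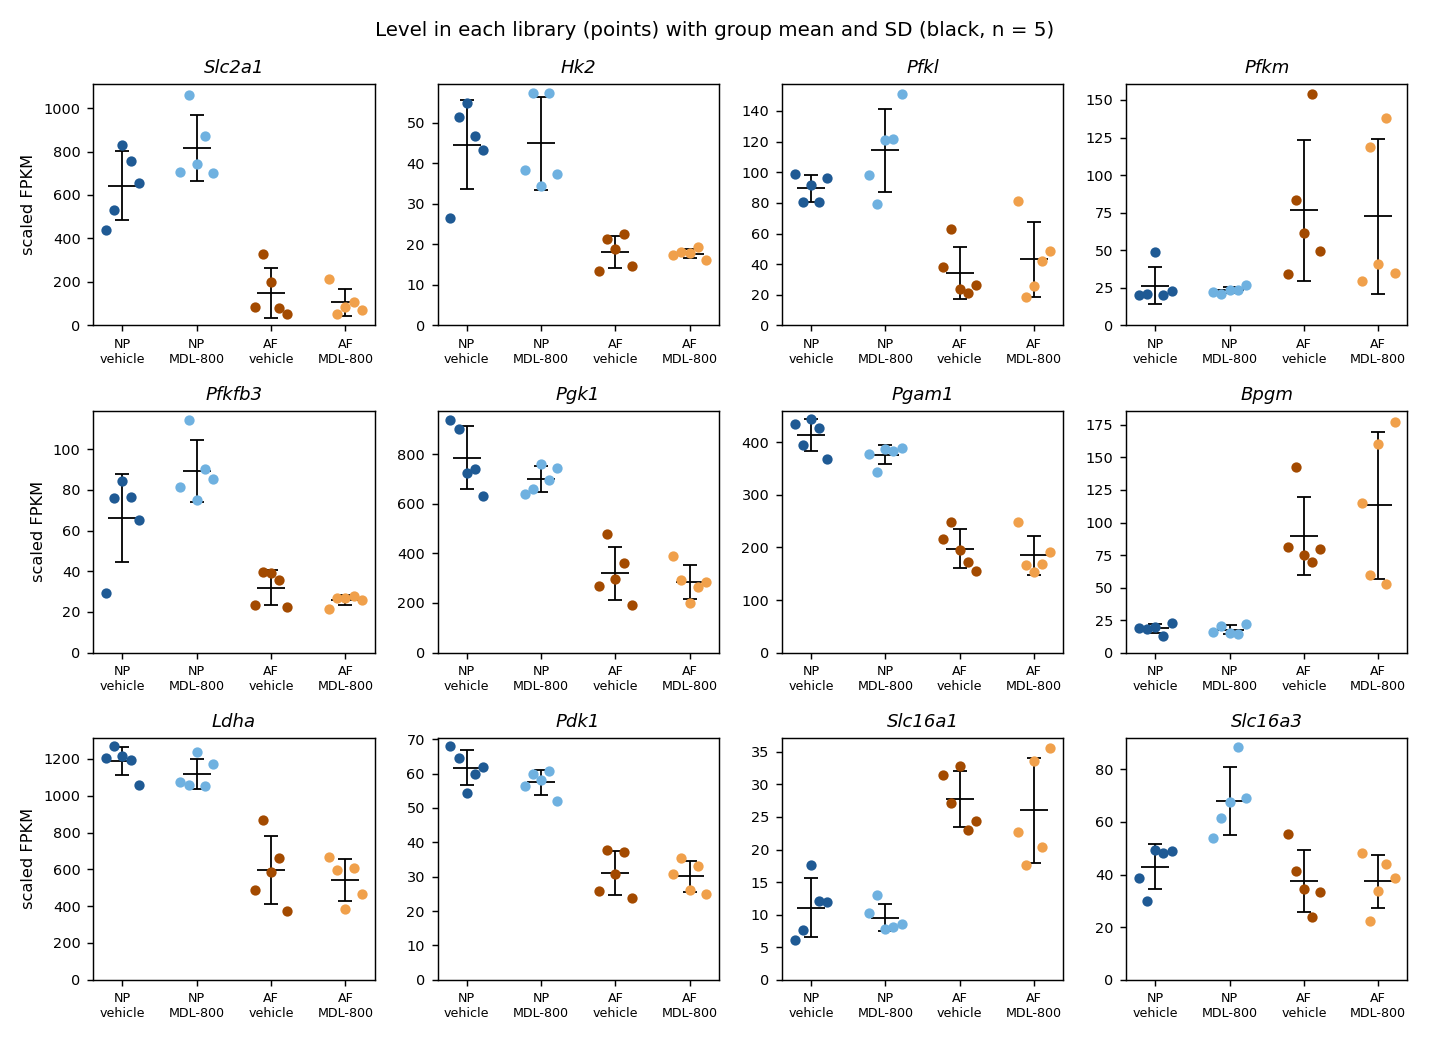
Scaled FPKM (vertical axis) of 12 genes in each library of the 4 groups (points), with the group mean and SD in black (n = 5). Slc2a1, Hk2, Pgk1, Pgam1, Ldha and Pdk1 are higher in every NP than in every AF vehicle library, Bpgm and Slc16a1 lower, and Slc16a3 is highest in NP MDL-800 (53.9 to 88.6).

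Both lactate dehydrogenase genes were higher in NP. Ldha, whose subunit favours pyruvate reduction, was at 1206, 1269.5, 1214, 1194 and 1060.3 in NP vehicle and 488, 867, 588, 663 and 376 in AF vehicle, without overlap (log2 fold change 1.05, SE 0.21, adjusted p = 0.00147). Ldhb, the heart-type subunit, was at 60.7 ± 9.40 against 38.8 ± 10.2 with overlap (log2 fold change 0.66, SE 0.18, adjusted p = 0.0101). The Ldha share of the pair was 95.1% ± 0.614 in NP and 93.8% ± 1.26 in AF, and these ranges overlapped.

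Among the pyruvate dehydrogenase kinases, which switch the complex off, only Pdk1 passed. It was at 68.1, 64.5, 54.3, 59.9 and 61.8 in NP vehicle and 25.9, 37.8, 30.8, 37.3 and 23.9 in AF vehicle. NP lay above AF in all libraries (log2 fold change 0.98, SE 0.14, adjusted p = 0.000155). Pdk2 was at 23.9 ± 4.04 in NP and 30.3 ± 12.5 in AF, Pdk3 at 22.2 ± 0.921 and 19.2 ± 2.60, and Pdk4 at 13.6 ± 5.83 and 13.6 ± 5.44. Their log2 differences were -0.26, 0.20 and -0.01 (adjusted p = 0.402, 0.106 and 0.988). The Pdk3 difference passed at 0.26 without AF vehicle 8 and under upper quartile scaling (0.38) and quantile normalization (0.39). Pdk1 made up 50.9% ± 2.97 of the kinase FPKM in NP and 33.2% ± 2.26 in AF.

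The 4 complex genes did not move as a block. Pdha1, the E1 alpha subunit and target of the kinases, was higher in NP at 189.6, 164, 171, 145 and 149 against 73.3, 115, 76.4, 105 and 58.2 (log2 fold change 0.97, SE 0.18, adjusted p = 0.000892). Pdhb, the partner E1 beta subunit, was lower at 36.5 ± 4.18 against 50.0 ± 9.89 (log2 fold change -0.43, SE 0.14, adjusted p = 0.0184). The E2 gene Dlat was at 17.5 ± 1.42 against 21.8 ± 1.62 (log2 fold change -0.31, SE 0.09, adjusted p = 0.0137) and the E3 gene Dld at 25.2 ± 2.40 against 35.5 ± 6.73 (log2 fold change -0.46, SE 0.13, adjusted p = 0.00881). These 3 lower genes had no overlap between groups, and all 3 were no longer called under upper quartile scaling, at -0.25, -0.13 and -0.28. Without the 2 AF vehicle libraries of highest muscle sum, Pdhb and Dlat did not pass (-0.26 and -0.25). Mpc2, a subunit of the mitochondrial pyruvate carrier, was at 43.7 ± 8.84 in NP and 71.4 ± 25.1 in AF (log2 fold change -0.65, SE 0.22, adjusted p = 0.0247). Its call was lost on leaving out NP vehicle 1, 5 or 6 or AF vehicle 9 (-0.62 to -0.60), without a filter on low values, and without the 2 muscle-rich AF libraries (-0.35). Mpc1, the other subunit, was at 122 ± 19.4 and 130.2 ± 51.0, and its difference of -0.03 became 0.15 under upper quartile scaling.

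Lactate transport also changed in makeup. Slc16a1 encodes MCT1, common in cells that take lactate up, and was at 6.04, 7.59, 17.6, 12.0 and 11.9 in NP vehicle and 31.4, 27.1, 32.8, 23 and 24.3 in AF vehicle. It was lower in NP throughout (log2 fold change -1.33, SE 0.24, adjusted p = 0.000784). Slc16a3 encodes MCT4, the exporter of strongly glycolytic cells, and was at 38.8, 29.8, 49.3, 48.2 and 49.0 in NP vehicle and 55.3, 41.3, 34.4, 23.9 and 33.2 in AF vehicle. The ranges overlapped and the difference did not pass (log2 fold change 0.22, SE 0.21, adjusted p = 0.415). Slc16a3 made up 80.1% ± 4.55 of the pair in NP and 56.8% ± 5.65 in AF, without overlap.

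Markers of other cell types moved with several of these genes. The 4 of 10 AF libraries with the highest skeletal muscle sums were also the 4 highest for Pfkm, Aldoa, Gapdh, Pdk2, Pdhb, Mpc1 and Mpc2, and 3 of those 4 were among the highest for Pfkfb1, Dlat and Dld. Pdk1, called higher in NP, also had these 4 as its highest AF libraries. It was at 37.8 and 37.3 in AF vehicle 9 and 12, and at 35.5 and 33.1 in AF MDL-800 27 and 29. Hk2, Tpi1, Ldha and Pdha1, also higher in NP, had AF vehicle 9 and 12 and AF MDL-800 29 among their 4 highest AF libraries. The 4 with the highest red blood cell sums were the 4 highest for Bpgm. Those sums ran at 49.8 to 189 in NP vehicle and 669 to 2155 in AF vehicle over 10 genes, all 10 lower in NP. The 4 with the highest neutrophil sums were the 4 highest for Pfkfb4 and Slc2a3 and included 3 of the 4 highest for Slc16a1. The 4 with the highest NP marker sums included 3 of the 4 highest for Slc2a1, Eno1 and Pfkl. Pgam1, Pkm, Eno2 and Aldoc also had AF vehicle 9 and 10 and AF MDL-800 25, all high in that sum, among their 4 highest. Pfkl shared 3 of its 4 highest with the red blood cell sums as well (AF vehicle 9 and AF MDL-800 25 and 30). Only picked pairs of gene and marker list are given, and the share of all genes with such an overlap was not counted. The neutrophil sums of 12 genes ran at 212 to 3370.4 in NP vehicle and 7929.8 to 21074 in AF vehicle. Macrophage (9 of 9), bone (10 of 10), fat (7 of 7), endothelial (8 of 8) and nerve markers (6 of 7) were lower in NP as well. The part of these cell types in the results was not tested. Without the 2 AF vehicle libraries of highest muscle sum, 25 of the 36 genes were again called, 18 higher and 7 lower, of which 22 were shared with the full set. Of all genes 21.2% were called higher and 33.9% lower without those libraries. Aldoa, Gapdh and Hk1 were gained and Pdhb, Dlat and Mpc2 lost. This omission does not concern muscle alone. AF vehicle 9, which it removes, also had the highest NP marker sum in AF (16532) and the highest red blood cell sum in AF vehicle (2155).

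**Figure D4:**
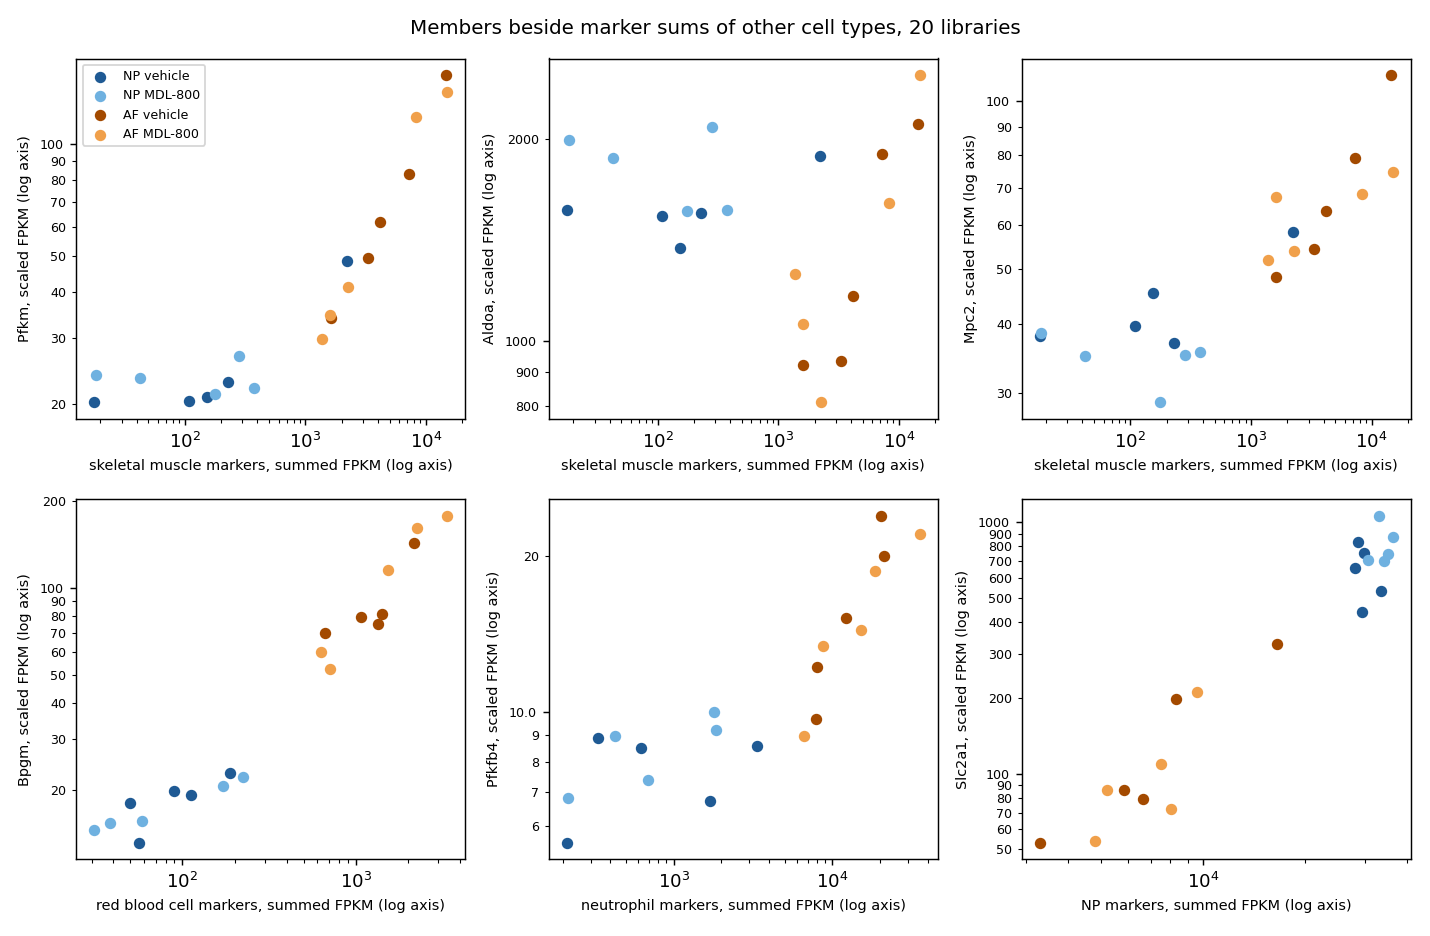
Scaled FPKM of 6 genes (vertical, log axis) against the summed FPKM of a marker list (horizontal, log axis) in the 20 libraries, coloured by group. Pfkm is highest in the AF libraries of highest muscle sum (154 at a sum of 14511), Bpgm in those of highest red blood cell sum (178 at 3371). The NP libraries have the lower sums in all panels but that of the NP markers, except that NP vehicle 3 (2233) lies above 3 AF libraries in skeletal muscle.

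The tissue comparison was repeated in the MDL-800 groups, a separate set of libraries. Again 25 of 36 genes passed, 16 higher and 9 lower, against 62.8% of all genes tested (25.6% higher and 37.2% lower). The groups did not overlap for 14 higher and 7 lower genes (49.1% of all genes did not overlap), and the median was 0.38, beside -0.08 over all genes. With upper quartile scaling 28 were called, 20 higher and 8 lower, and with quantile normalization 24, 18 higher and 6 lower. All genes gave 34.2% higher and 30.8% lower, and 42.2% and 26.2%, under these scalings. Slc2a1 was again the most different of the higher genes, at 706, 1061, 745, 870.0 and 702 in NP MDL-800 and 212, 54.0, 86.4, 109 and 72.2 in AF MDL-800 (log2 fold change 3.07, SE 0.31, adjusted p = 1.3e-05). Bpgm was again the most negative (log2 fold change -2.46, SE 0.33, adjusted p = 8.77e-05). Pfkfb3 no longer overlapped, at 81.4, 114, 74.8, 90.4 and 85.5 against 21.4, 26.8, 26.9, 28.0 and 25.8 (log2 fold change 1.74, SE 0.12, adjusted p = 1.75e-06). Gapdh (0.62, adjusted p = 0.0138) and Slc16a3 (0.88, adjusted p = 0.00285) passed here and not in vehicle, whereas Pfkp (0.36, adjusted p = 0.057) and Ldhb (0.40, adjusted p = 0.0973) passed in vehicle and not here. Whether these differences themselves differ between treatments is tested by the interaction given at the end.

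Some of these calls depended on the processing or on single libraries. Gapdh was no longer called without a filter on low values, nor were Pfkfb1 (-0.37), Pfkfb4 (-0.47) and Dlat (-0.08) with quantile normalization, or Dlat with upper quartile scaling (-0.11). Dlat (-0.30) also lost its call on leaving out NP MDL-800 18, 19, 20 or 22 or AF MDL-800 27 or 29. Pfkp passed without AF MDL-800 25 (0.46) or 27 (0.42), Ldhb without NP MDL-800 18 (0.51), Aldoa without AF MDL-800 29 (0.65), and Hk1 without NP MDL-800 18 (-0.37) or AF MDL-800 27 (-0.36) or 29 (-0.38). Over all 23 alternative settings, Pfkp and Ldhb each passed in 5 and Hk1 in 6. Aldoa passed in 3, Pfkfb2 in 2, and Gpi1 and Mpc1 in 1 each. Without AF MDL-800 29 and 27, which had the highest muscle sums, 29 genes were called, 20 higher and 9 lower, against 24.5% and 36.6% of all genes. The difference of Pdk2 went from -0.07, not called, to 0.44, called.

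Neighbouring pathways were read from lists of genes outside the 36. Beside the 21.8% of all genes called higher and 33.9% called lower in NP vehicle, 12 of 18 other HIF and hypoxia genes were higher and 1 was lower (median 0.77). Car9, the hypoxia-induced carbonic anhydrase, was at 41.1 ± 9.61 against 8.16 ± 4.80 (log2 fold change 2.35, SE 0.34, adjusted p = 0.000191), and Adm, adrenomedullin, at 52.9 ± 21.4 against 13.5 ± 11.8 (log2 fold change 2.17, SE 0.56, adjusted p = 0.00702), each as NP against AF. In the tricarboxylic acid cycle 12 of 16 genes were lower and 1 was higher (median -0.57), with citrate synthase, Cs, at 34.7 ± 4.12 against 72.7 ± 13.2 (log2 fold change -1.04, SE 0.13, adjusted p = 7.82e-05) and Suclg2, a succinyl-CoA ligase subunit, at 52.3 ± 6.76 against 25.7 ± 5.01 (log2 fold change 1.01, SE 0.14, adjusted p = 0.000138). In the pentose phosphate pathway 7 of 8 genes were lower and none was higher (median -1.24), led by G6pdx at 18.7 ± 5.53 against 68.5 ± 20.5 (log2 fold change -1.81, SE 0.22, adjusted p = 7.53e-05) and Rpia (log2 fold change -1.50, SE 0.21, adjusted p = 0.000171). Under upper quartile scaling the hypoxia list had 15 higher and 1 lower, the tricarboxylic acid cycle 1 higher and 8 lower, and the pentose phosphate pathway 6 lower, and with quantile normalization 13 and 0, 1 and 10, and 0 and 6. Of all genes, 30.4% were then called higher and 28.4% lower under upper quartile scaling, and 39.5% and 24.0% with quantile normalization. Skeletal muscle and neutrophil markers were lower in NP as given above, and their part in these lists was not tested.

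Counts here are of genes that passed the filter on low values. Of 15 other glycolytic enzymes and regulators listed 10 were tested, and 2 were higher and 7 lower (median -1.65). For other hexose transporters 8 of 10 listed were tested. The lowest in NP were the muscle forms Pgam2, at 8.55 ± 13.0 against 80.3 ± 61.4 (log2 fold change -3.49, SE 0.76, adjusted p = 0.00249), and Eno3, at 22.8 ± 31.5 against 171 ± 125 (log2 fold change -3.24, SE 0.70, adjusted p = 0.00238). Of 8 other hexose transporters 1 was higher and 5 were lower (median -1.01), with Slc2a4, the insulin-responsive GLUT4 of muscle and fat, at 4.47 ± 2.68 against 20.6 ± 10.0 (log2 fold change -1.98, SE 0.37, adjusted p = 0.00103). Of 14 glycogen genes 3 were higher and 5 lower: Ppp1r3c, which targets phosphatase to glycogen, was at 801 ± 86.3 against 209 ± 107 (log2 fold change 2.10, SE 0.32, adjusted p = 0.000291) and the muscle phosphorylase Pygm at 12.8 ± 18.7 against 111 ± 82.7 (log2 fold change -3.50, SE 0.69, adjusted p = 0.00144). Of 7 other lactate transport and sensing genes listed only 3 were tested, and all 3 passed. Bsg, the chaperone of MCT1 and MCT4, was higher at 908 ± 71.3 against 402 ± 128 (log2 fold change 1.23, SE 0.21, adjusted p = 0.000535) and was picked after its value was seen, while the related chaperone Emb was lower at 2.79 ± 2.44 against 37.3 ± 15.6 (log2 fold change -3.44, SE 0.41, adjusted p = 5.74e-05) and Slc16a7, MCT2, lower at 0.288 ± 0.263 against 5.15 ± 1.74 (log2 fold change -2.23, SE 0.20, adjusted p = 1.39e-05).

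The remaining lists held fewer calls or calls in both directions. Tested were 7 of 8 gluconeogenesis genes listed and 6 of 7 other pyruvate dehydrogenase genes. Of 8 NADH shuttle genes 1 was higher and 5 were lower, led by Gpd1, the cytosolic glycerol phosphate dehydrogenase, at 2.58 ± 2.15 against 16.4 ± 4.50 (log2 fold change -2.46, SE 0.40, adjusted p = 0.000393) and Slc25a12, an aspartate and glutamate carrier, at 12.9 ± 3.26 against 32.7 ± 6.24 (log2 fold change -1.29, SE 0.17, adjusted p = 0.000109). Of 7 gluconeogenesis genes 2 were higher and 3 lower (median -0.34, and 0.15 with quantile normalization), with Pck2 at 3.39 ± 0.5 against 10.1 ± 3.44 (log2 fold change -1.26, SE 0.24, adjusted p = 0.00124) and the pyruvate carboxylase gene Pcx at 17.8 ± 3.04 against 11.3 ± 3.74 (log2 fold change 0.65, SE 0.19, adjusted p = 0.0136). Of 6 other pyruvate dehydrogenase genes 1 was higher and 1 lower, the latter being Pdhx, the E3-binding protein, at 6.03 ± 1.75 against 13.3 ± 1.29 (log2 fold change -1.05, SE 0.17, adjusted p = 0.000384). In the MDL-800 libraries the hypoxia list again had 12 genes higher and 1 lower (median 0.82), the tricarboxylic acid cycle 1 higher and 13 lower (median -0.54), and the pentose phosphate pathway none higher and 8 lower (median -1.16). Of all genes, 25.6% were called higher and 37.2% lower there (median -0.08).

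The second question was whether MDL-800 changed the pathway. In NP none of the 36 genes passed, against 0.250% of all genes tested (38 higher and 3 lower). Without adjustment, 2 of the genes were higher and 3 lower at p under 0.05, against 14.1% of all genes (9.11% higher and 4.99% lower). The differences ran from -0.31 to 0.66 with a median of -0.03, equal to that of all genes.

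Slc16a3, the MCT4 gene, had the largest difference of the 36. Its level was 38.8, 29.8, 49.3, 48.2 and 49.0 in NP vehicle and 53.9, 61.4, 67.6, 88.6 and 69.2 in NP MDL-800. All 5 MDL-800 libraries lay above all 5 vehicle libraries, which held for 3.50% of all genes in that direction and for no other of the 36. The difference (log2 fold change 0.66, SE 0.16, adjusted p = 0.101) had an unadjusted p of 0.00215 and missed the adjusted threshold. On leaving out 1 library at a time it ran from 0.53 to 0.73 (adjusted p = 0.0839 to 0.232). It was 0.51 with a trend on GC content removed, and over all alternatives its adjusted p ran from 0.0839 to 0.247. In AF the gene was at 48.1, 22.4, 33.7, 43.9 and 38.6 under MDL-800. Of 13 NP markers tested none passed between treatments, 4 reached an unadjusted p under 0.05 upward, and 3 lay higher in MDL-800 without overlap, namely Krt19 (640.4 to 1442 in vehicle and 1689 to 2355 in MDL-800), Krt8 (749.7 to 883 and 926 to 1243) and T (1193 to 1701 and 1780.1 to 2328). The rest of the list did not all rise: 9 of the 13 markers had a difference above 0. Their differences ran from -0.59 to 0.88 with a median of 0.12. The sum of the list was 28164 to 33527 and 30608 to 36352, and its part in the Slc16a3 difference was not tested. The Slc16a3 share of the pair with Slc16a1 was 87.3% ± 3.85 in NP MDL-800, beside 80.1% in NP vehicle, with overlapping ranges.

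The other NP genes at an unadjusted p under 0.05 changed less. Aldoc was at 50.4, 36.7, 35.6, 44.4 and 42.3 in NP vehicle and 46.7, 46.9, 48.7, 47.7 and 54.5 in NP MDL-800 (log2 fold change 0.23, SE 0.10, adjusted p = 0.322). Mpc2 was at 38.1, 45.5, 58.4, 39.7 and 37.0 and 35.5, 28.9, 38.4, 35.0 and 35.1 (log2 fold change -0.31, SE 0.13, adjusted p = 0.293), and NP vehicle 3, the NP library of highest muscle sum, was its highest NP value. Without that library the difference was -0.21. Pdk3 was at 22.2 ± 0.921 and 19.8 ± 1.30 (log2 fold change -0.16, SE 0.07, adjusted p = 0.312), and Dld at 25.2 ± 2.40 and 21.8 ± 1.74 (log2 fold change -0.20, SE 0.08, adjusted p = 0.315). Groups overlapped for all 4 genes.

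Genes that set NP apart from AF were then read between treatments in NP, a comparison that shares the NP vehicle libraries with the first one. Slc2a1 was at 642 ± 159 in vehicle and 817 ± 153 in MDL-800 (log2 fold change 0.37, SE 0.19, adjusted p = 0.422), and Pfkl at 89.6 ± 8.70 and 114 ± 27.1 (log2 fold change 0.32, SE 0.15, adjusted p = 0.386). Ldha was at 1189 ± 77.5 and 1119 ± 82.6 (log2 fold change -0.09, SE 0.10, adjusted p = 0.746) and Pdk1 at 61.7 ± 5.18 and 57.4 ± 3.51 (log2 fold change -0.10, SE 0.07, adjusted p = 0.58). Both lactate dehydrogenase genes and all 4 pyruvate dehydrogenase complex genes had differences below 0 (-0.21 to -0.09), none past the threshold. A difference above 0 was found for only 17 of the 36 genes and 6982 of all 16383 genes tested, so this direction was common. Among the other pathway lists no gene passed in NP.

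**Figure D5:**
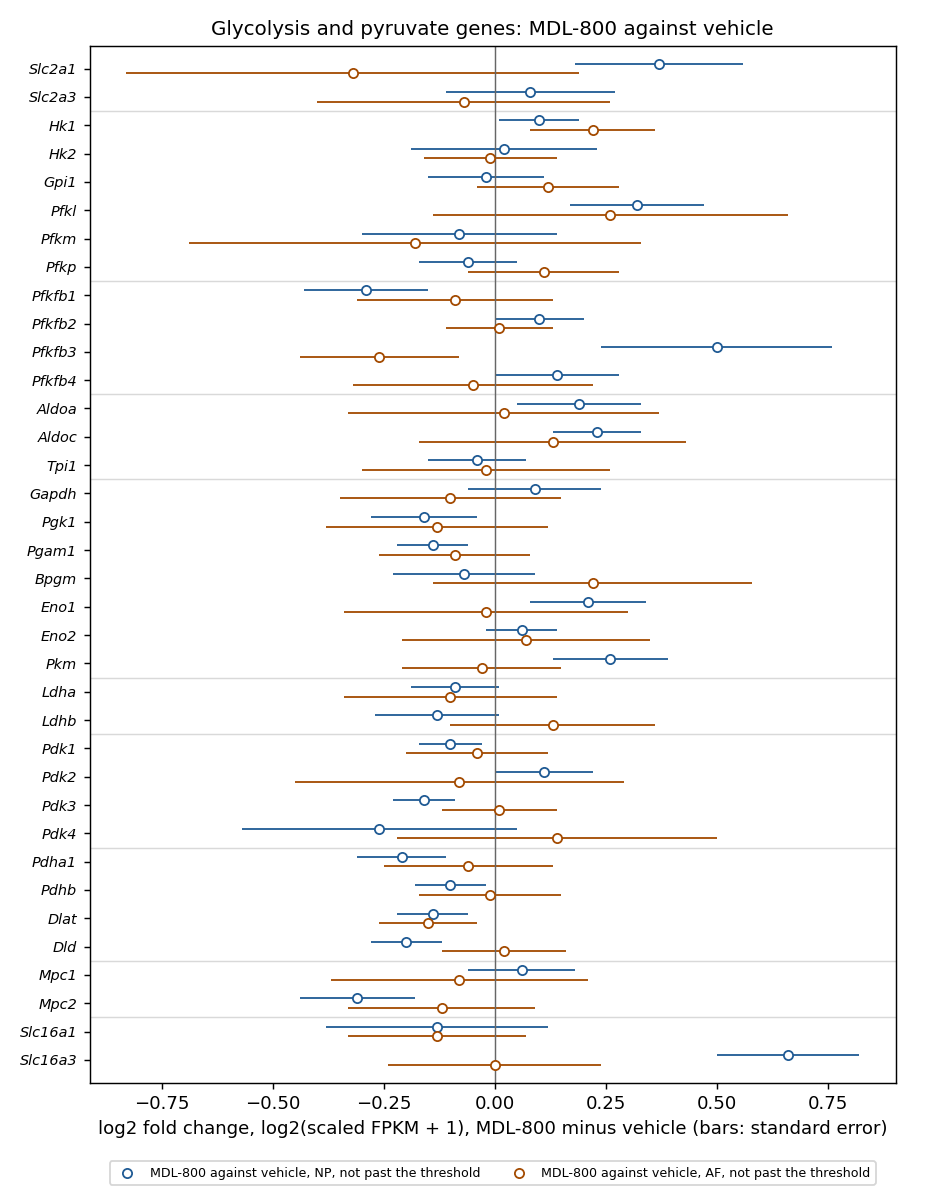
Log2 fold change, MDL-800 minus vehicle, of the 36 genes in NP (blue) and AF (brown), with bars for the standard error. All points are open, as none passed an adjusted p of 0.05, and Slc16a3 in NP lies farthest from 0 (0.66).

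In AF none of the 36 genes passed, against 0.00% of all genes tested, and none reached an unadjusted p under 0.05, against 1.65% of all genes. Differences ran from -0.32 to 0.26 with a median of -0.02. The genes with the smallest p were Hk1 (log2 fold change 0.22, SE 0.14, adjusted p = 1) and Gpi1 (log2 fold change 0.12, SE 0.16, adjusted p = 1) upward, and Pfkfb3 (log2 fold change -0.26, SE 0.18, adjusted p = 1) and Dlat (log2 fold change -0.15, SE 0.11, adjusted p = 1) downward. With vehicle Hk1 was at 50.6, 49.3, 44.5, 36.9 and 46.9, and with MDL-800 at 55.2, 45.1, 64.5, 42.9 and 60.8, with overlap.

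The treatment effect was then compared between tissues. None of the 36 genes passed the interaction test, against 0.00% of all genes, and 2 reached an unadjusted p under 0.05, against 3.73% of all genes (2.12% in their direction). These were Pfkfb3 (log2 fold change 0.76, SE 0.33, adjusted p = 1, unadjusted p = 0.0316) and Slc16a3 (log2 fold change 0.66, SE 0.31, adjusted p = 1, unadjusted p = 0.0447), each with a more positive treatment difference in NP than in AF. Pfkfb3 differed by 0.50 in NP and by -0.26 in AF. The interaction of Pfkfb3 was 0.49 without NP vehicle 1, where the gene was lowest of the NP libraries (29.3). In the other direction the smallest p belonged to Dld (log2 fold change -0.21, SE 0.16, adjusted p = 1) and Pdk3 (log2 fold change -0.17, SE 0.15, adjusted p = 1).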

How the data were processed

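The authors deposited 1 table of FPKM per gene and library, with no counts. Mouse genome mm10 and STAR 2.7.11b are named in the submitters' processing notes without a role, and the counting program and annotation are not given in the sources used here. Groups came from the sample labels. The filter on low values asked for 5 of the 20 libraries to reach 1 FPKM, which 16383 genes did. Values were rescaled by the median ratio over 11308 genes (factors 0.933 to 1.06) and compared as log2(scaled FPKM + 1), with that pseudocount of 1, in limma 3.58.1 (R 4.3.3, trended empirical Bayes, two-sided, Benjamini-Hochberg over all genes tested, threshold 0.05), with only the groups compared in each fit and all 4 in the interaction. Depth came from the steps of low values, so precision is limited for genes near 1 FPKM. The test was checked on simulated data. Promoters were searched in Python 3.11.15 and near-identical copies of the 36 genes with blastn 2.17.0.

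The 36 genes and the other lists were chosen with earlier results of these data known, so their direction is no independent evidence. All 36 are named in the vehicle tissue comparison. In each treatment comparison the called genes are named or, with fewer than 4, also the 2 of smallest p in each direction. Other lists give at most 2 called genes, those of largest change with a mean of at least 5 FPKM in the higher group. The alternatives were other pseudocounts (0.1 and 0.5), scalings and filters, and a GC trend removed. No variance trend, a fit of all 4 groups and each library left out were also run. Skeletal muscle or red blood cell markers entered as a covariate only in the treatment comparisons and the interaction, not between tissues.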

Additional observations from a re-analysis of the deposited data

Results flagged for a closer look

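In 8 of 144 groups of 5 libraries, 1 library lay far from the others by Dixon's gap test, where chance gives about 1 in 20. In AF vehicle, library 9 was high for Bpgm (142.52, next 81.494) and also had the highest red blood cell sum of its group. AF vehicle 12 was high for Dld (47.221, next 34.62) and Pfkfb1 (5.547, next 3.0423), and NP vehicle 3 for Pfkm (48.541, next 22.88). AF vehicle 12 and NP vehicle 3 each had the highest skeletal muscle sum of their group. AF MDL-800 25 was high for Eno2 (21.163, next 9.2499), and had the highest sum of NP markers in its group. Without it the tissue difference of Eno2 in MDL-800 libraries was 1.69. NP MDL-800 22 was high for Aldoc (54.49, next 48.67). NP MDL-800 18 was low for Ldhb (40.072, next 57.479) and Pgam1 (344.14, next 377.7). The part of the markers in these values was not tested.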

How the results depend on the processing

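The counts of called genes kept within 1.5 times of the values reported under all alternatives run: 24 to 26 of 36 between tissues in vehicle and 22 to 29 in MDL-800 libraries, 24 to 26 in each with 1 library left out, and 0 in both treatment comparisons and the interaction. Between tissues, marker covariates were not among the alternatives. Single genes whose difference changed sign, none of them called before, were the following. Between tissues in vehicle, Pfkfb2 was at -0.0048 on the FPKM as deposited. Upper quartile scaling gave Slc2a3 0.14, Hk1 0.0024, Pdk4 0.17 and Mpc1 0.15, and quantile normalization Slc2a3 0.09, Pdk4 0.25 and Mpc1 0.03. Without the 2 AF libraries of highest muscle sum Pdk2 was at 0.07, Pdk4 at 0.24 and Mpc1 at 0.28. Leaving out 1 library at a time gave Slc2a3 -0.20 to 0.10, Pdk4 -0.22 to 0.18 and Mpc1 -0.15 to 0.16. Between tissues in MDL-800 libraries, Pdk3 was at -0.05 on the FPKM as deposited, and Pdk2 at 0.11 and 0.10 under upper quartile scaling and quantile normalization. Without the 2 AF libraries of highest muscle sum Slc2a3 was at -0.35, Pdk2 at 0.44 and Pdk3 at -0.11. Leaving out 1 library gave Slc2a3 -0.10 to 0.26, Pdk2 -0.24 to 0.19, Mpc1 -0.05 to 0.27 and Pdk3 -0.04 to 0.11. The cause was not tested.

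The labels give no pairing of NP and AF libraries. In vehicle every NP column header shares a number with an AF header, and under MDL-800 3 do. Same-numbered libraries deviated together with correlations of -0.18 to 0.29, and differently numbered ones with -0.37 to 0.33. These correlations cannot tell whether a shared header number marks 1 mouse. A replicate block on that number, chosen after the data were seen like the omission of muscle-rich libraries, gave 24 called genes in vehicle, without Pkm (0.56). In the 3 MDL-800 libraries of each tissue with a shared number, 22 were called with the block (without Gapdh, 0.72) and 24 without it, Pfkm (-1.14), Pfkfb4 (-0.80) and Dlat (-0.33) were called in neither, and Slc2a3 was at -0.04 and Pdk2 at 0.10 in both fits. The share of all genes called in these fits is not given here, so their counts have no background beside them. FPKM without counts leaves the error of single values unknown.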
